A study of Homo sapiens with 2 samples.

Results

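Among the genes that the authors listed as changed in SNU-449 cells after ezetimibe, 25 belonged to the calcium and cAMP signalling machinery and to none of 14 neighbouring pathways. They were 25 of 2238 listed genes. They were chosen by pathway annotation from the authors' list of changed genes: the genes under the KEGG pathways for calcium signaling or cAMP signaling, less those also listed under any of the 14 (among them MAPK, Ras, Wnt, insulin and mTOR signaling, focal adhesion, axon guidance, bile secretion and neuroactive ligand receptors), and less 10 kinase, PI3K and AP-1 genes taken out by name. Both pathways together held 105 listed genes, so the removals took out 80. The 10 named genes were all listed under the 14 pathways as well, so naming them took out no further gene. Membership therefore rests on the authors' calls in the same comparison, and all counts of direction below are a description with no test.

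SNU-449 is an established human hepatocellular carcinoma line. The tested culture received ezetimibe, a blocker of the sterol transporter NPC1L1, for 24 h, and the other was labelled as control; the sources used here do not give the dose or the vehicle. Total RNA of 1 ezetimibe culture and 1 control culture was sequenced, so no difference has a replicate check. The authors' deposited table gives each gene a direction, up or down, with no level, fold change or p-value per gene, and sequencing depth is unknown from it. The comparison is named with ezetimibe before control, so up was taken to mean higher in the ezetimibe culture, and the table holds nothing to check that against. Genes missing from the table may have failed the authors' thresholds, may not have been expressed, or may belong to no KEGG pathway. Of 11 hepatocyte markers 0 were listed as up, 4 as down (FGA, FGB, FGG and CPS1) and 7 were not listed, and a list of changed genes cannot show whether the others were expressed. Of 5 mesenchymal markers, 1 was listed as up (VIM) and 4 as down.

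Calcium ions and cyclic AMP (cAMP) are second messengers, small diffusible signals that carry the message of a hormone or transmitter from a receptor at the cell surface to targets inside the cell. Adenylyl cyclases make cAMP, phosphodiesterases break it down, and protein kinase A, the EPAC exchange factors and the CREB transcription factors respond to it. Calcium is released from the endoplasmic reticulum (ER) through channels opened by inositol trisphosphate (IP3), is refilled by store-operated entry and pumped out by ATP-driven pumps, is buffered by mitochondria, and acts through calmodulin and its kinases. In liver cells both messengers carry the signals of glucagon, adrenaline and vasopressin to sugar and lipid metabolism.

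Of the 25 genes, 5 were listed as up (CREB3, ITPKC, SPHK1, PPIF and SLC25A6) and 20 as down. Of the 8877 background genes in the authors' deposited table, 25.2% were listed as changed in either direction, 8.20% as up and 17.0% as down. Because every member had to be listed, nothing is read from the members' count against these shares. The role lists used below were chosen with earlier results of these data known, so their counts of listed genes are a description too. The share up was 20% among the 25 (95% interval 6.83 to 40.7 by the exact Clopper-Pearson method, which covers counting error alone), against 32.5% of all 2238 listed genes (30.6 to 34.5). The interval of the members holds the share of all listed genes. Among the 80 genes of both pathways that were removed, 21 were up and 59 down (26.3% up, 17.0 to 37.3).

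The cAMP arm and the calcium arm had different counts. Of 13 members under cAMP signaling, 1 was up and 12 down (7.69% up, 0.195 to 36.0), and of 14 under calcium signaling, 4 were up and 10 down (28.6% up, 8.39 to 58.1). The plasma membrane calcium pump ATP2B4 and the calmodulin-dependent kinase CAMK4 lie under both and were down. The difference between the arms was not tested, and the intervals overlap. Over the whole pathways, with the removed genes, the shares lay closer together. For cAMP signaling 13 were up and 53 down (19.7% up), and for calcium signaling 15 up and 40 down (27.3% up). In the authors' deposited table neither whole pathway ranked high: calcium signaling had 55 of 194 genes changed (rich factor 1.12, p = 0.351, rank 164 of 327 pathways by p) and cAMP signaling 66 of 222 (rich factor 1.18, p = 0.171, rank 135).

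**Figure D1:**
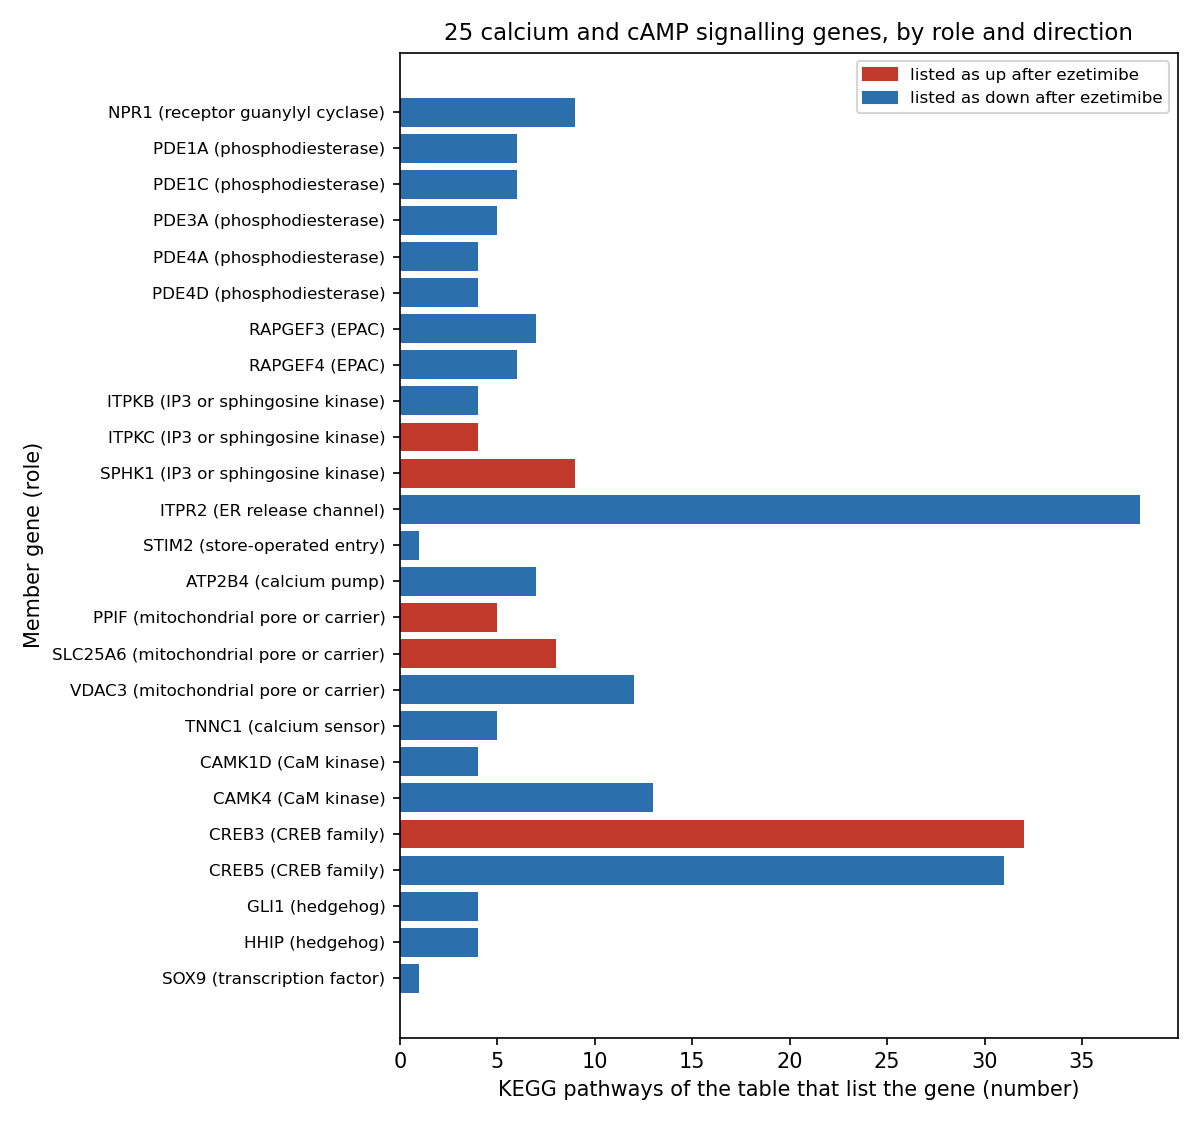
The 25 member genes from receptor to transcription factor, each bar giving the number of KEGG pathways of the table that list the gene, red for genes listed as up after ezetimibe and blue for genes listed as down. The 5 red bars are ITPKC, SPHK1, PPIF, SLC25A6 and CREB3, and all phosphodiesterases and EPAC genes are blue; bar length shows breadth of annotation, from 1 pathway (STIM2, SOX9) to 38 (ITPR2), and not the size of a change.

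The 5 phosphodiesterases among the members were all listed as down. PDE1A and PDE1C are the calmodulin-stimulated enzymes that cleave both cAMP and cGMP, and so join the calcium and the cyclic nucleotide signal. PDE3A is a cAMP-degrading enzyme inhibited by cGMP. PDE4A and PDE4D are cAMP-specific enzymes. Taken over the whole table, 10 of 16 phosphodiesterase genes of the role list were listed, 1 as up and 9 as down. The others listed as down were PDE3B, PDE7A, PDE7B and PDE8A, and the one listed as up was the cGMP-stimulated PDE2A. Of all 8877 background genes, 25.2% were listed in either direction and 17.0% as down. The enzymes that make cAMP, removed here through the bile secretion pathway, had 1 up (ADCY8) and 3 down (ADCY1, ADCY6 and ADCY9) of 10 adenylyl cyclases. The other maker of a cyclic nucleotide among the members, NPR1, the natriuretic peptide receptor that synthesises cGMP, was also down.

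Both EPAC genes, RAPGEF3 and RAPGEF4, were down. They encode cAMP-activated exchange factors for the small GTPase Rap1. Protein kinase A, the other main cAMP effector, had 3 of 11 subunit and inhibitor genes listed. The catalytic subunit PRKACB and the regulatory subunit PRKAR2B were down and the kinase inhibitor PKIA was up. The makers, destroyers and effectors of cAMP thus all had genes listed as down. The cyclases, the phosphodiesterases and the protein kinase A genes each also had 1 listed as up (ADCY8, PDE2A and PKIA). Of all 2238 listed genes 1510 were down, so the down genes are not read as particular to cAMP. Since no level is given, nothing can be said about the net cAMP signal.

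The CREB family was split. CREB3, an ER-anchored transcription factor released by cleavage in the Golgi, was up, and CREB5, a nuclear bZIP factor that binds cAMP response elements, was down. Elsewhere in the table ATF4 and the CREB coactivators CRTC2 and CRTC3 were up. Of 18 genes in a list of known CREB targets, 8 were listed, against 25.2% of all background genes. FOS, FOSB, EGR1, DUSP1, PER1 and SIK1 were up, and BDNF and PPARGC1A were down. These targets also respond to MAP kinases and other signals, so their direction is not a readout of CREB alone.

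Among the members, the genes of calcium release from the ER, refilling and export were down. ITPR2, the IP3 receptor channel of the ER that is abundant in hepatocytes, was down, and it was the one listed gene among 14 of ER release. MCOLN1, a calcium release channel of endosomes and lysosomes that is not a member, was up and was the one listed gene among 7 of that role list. STIM2, the ER calcium sensor that opens store-operated channels, was down, as was the channel subunit TRPC1 that is listed under other pathways. ATP2B4, one of the pumps that expel calcium across the plasma membrane, was the one listed gene among 15 pumps and exchangers. IP3 is made by phospholipases C, which belong to the removed genes or to other pathways, and of 13 such genes 1 was up (PLCG2) and 5 down (PLCB3, PLCB4, PLCE1, PLCH1 and PLCH2).

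The 2 IP3 kinases among the members went opposite ways. ITPKC was up and ITPKB down; both phosphorylate IP3 to IP4 and so end its action on the ER channel. SPHK1, which makes the signalling lipid sphingosine 1-phosphate, was up. These lipid and inositol kinases, with 2 of 3 members up, and the mitochondrial group were the roles with more members up than down. In the mitochondrial group, PPIF (cyclophilin D, the regulator of the permeability transition pore) and SLC25A6 (an ADP/ATP carrier) were up, and VDAC3, a channel of the outer membrane, was down. The uniporter gene MCU and the other 10 genes of that list were not listed. Each of these groups has only 3 members. Of these, ITPKC, SPHK1, SLC25A6 and VDAC3 share sequence with other loci or overlap exons on the opposite strand. Their directions are uncertain, as described below.

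Calcium sensors and their kinases were down among the members. TNNC1, the troponin C of heart and slow muscle, CAMK1D and CAMK4 were all down. The calmodulin genes CALM2 and CALM3 and the related CALML4, which were removed through Ras and insulin signaling, were down as well. Of 7 listed calmodulin-dependent kinase genes of 15, the other 5 were CAMK2D and the phosphorylase kinase subunits PHKA2 and PHKB, which were down, and the phosphorylase kinase subunits PHKG1 and PHKG2, which were up. Among genes of myosin regulation, 8 of 13 were listed, all of them removed genes, and all 8 were down, including the kinase genes MYLK, ROCK1 and ROCK2. Of all background genes 25.2% were listed and 17.0% were listed as down. The role list was chosen with earlier results known, so this count is not read as a result about myosin regulation. Of 9 calcineurin and NFAT genes, 1 was up (PPP3CC) and 2 down (PPP3CA and NFATC2), and the protein kinase C gene PRKCA was down. None of the 3 nitric oxide synthases and none of 13 cyclic nucleotide-gated and related channels were listed.

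The remaining members sit under cAMP signaling as targets of protein kinase A or of the transcription factors it controls. GLI1, the transcription factor of the hedgehog pathway, and HHIP, the secreted inhibitor that binds hedgehog ligands, were down. The hedgehog receptor PTCH1 and GLI2, which are not members, were also down, so that 4 of 6 genes of that list were listed and all 4 were down. Of all background genes 25.2% were listed, and 1510 of the 2238 listed genes were down, so this small list is not read as a result about the hedgehog pathway. SOX9, a transcription factor of bile duct and progenitor cells that protein kinase A phosphorylates, was down and was listed under cAMP signaling only.

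**Figure D2:**
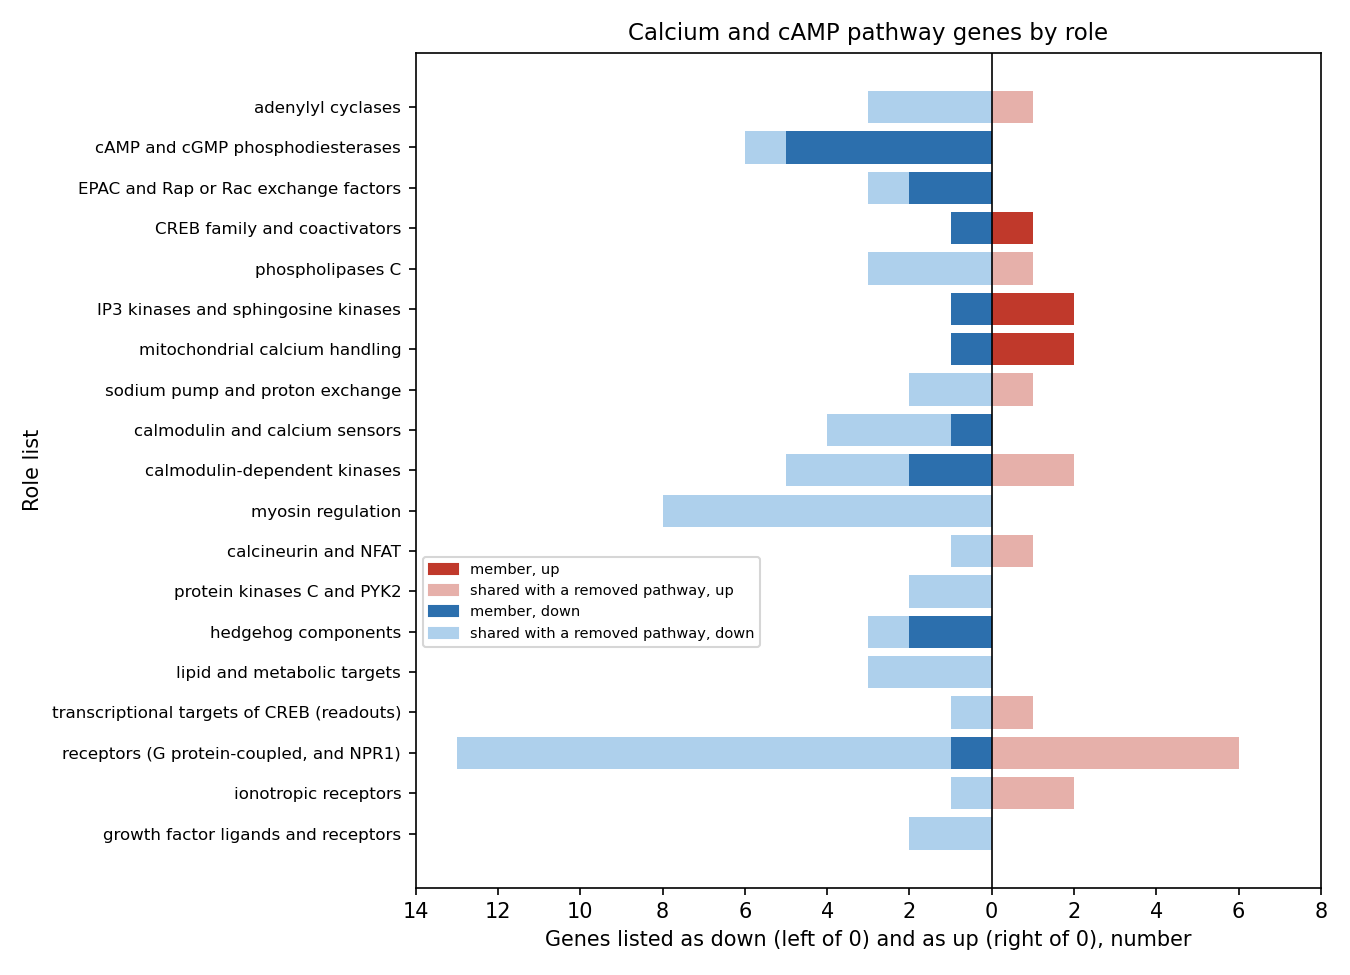
Listed genes of calcium and cAMP signaling by role list, for lists with 2 or more such genes, with the number listed as down drawn left of 0 and the number listed as up right of 0; dark bars are members and pale bars are genes removed because another pathway lists them too. The 5 member phosphodiesterases and the 8 removed myosin genes are all on the down side, and the receptors, nearly all of them removed, have 6 up and 13 down. Of all 2238 listed genes 1510 were listed as down.

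Receptors of the cell surface come first in these pathways, yet NPR1 is the one member among them. Through neuroactive ligand-receptor interaction alone 22 genes were removed, the endothelin ligands EDN1 and EDN2 among them, and other pathways took out the chemokine receptor CXCR4 and the growth factor receptors ERBB3 and ERBB4. Of 82 receptors in the role list, which holds NPR1 beside G protein-coupled receptors, 19 were listed, 6 as up and 13 as down. The beta adrenergic receptor ADRB1, the alpha adrenergic receptor ADRA1B and the vasopressin receptor AVPR1A were down, and the histamine receptor HRH1 was up. The adenosine receptors were split, with ADORA2A up and ADORA1 down. Of the 80 removed genes, 51 were removed through a single pathway. With these 51 put back, the set had 18 up and 58 down (23.7% up).

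Of 6 pairs of related members, 4 shared a direction and 2 were split. With 20 of the 25 members down, most pairs of any members share a direction. The count is therefore not read as an effect of relatedness. The proteins translated from GENCODE coding sequences of PDE4A and PDE4D, both down, were identical at 73.0% of 710 aligned residues, those of PDE1A and PDE1C, both down, at 71.0% of 503, and those of RAPGEF3 and RAPGEF4, both down, at 53.1% of 812. CAMK1D and CAMK4, both down, were identical at 47.9% of 309 aligned residues. The pairs that split by direction were ITPKB, down, and ITPKC, up, with 44.4% of 635 residues, and CREB5, down, and CREB3, up, which aligned over 55 residues only (43.6%). The pairs were picked by family name, and the values describe them alone.

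The promoters of the members were searched for the cAMP response element TGACGTCA, the site bound by CREB, which reads the same on both strands, and for its core motif TGACG on either strand. RefSeq promoter windows (GRCh38.p14, 250 bases before to 50 after a start site, with several windows for genes with several starts) were matched to 20 of the 25 members, and GLI1, ITPR2, SOX9, TNNC1 and VDAC3 had none. The full element was present in windows of 2 of the 20 genes, HHIP and PDE4A, both listed as down. Of these 20 genes, 15 were down. The element was present in 3.44% of the 1745 listed genes with a window and 2.25% of all 27305 genes of the promoter table. By direction, it was in 4.11% of the 560 listed as up and 3.12% of the 1185 listed as down. The members have more windows per gene, with the SLC25A6 window counted on both X and Y. Counted by window, the full element was in 2 of 54 windows of members (3.70%), 2.45% of 2648 windows of listed genes and 1.85% of the 35116 windows of the table. Both sequences are shown because they hold it; capitals mark every full element and core motif, which overlap within the full element, and positions count from the start site.

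HHIP, chr4:144646061-144646108, plus strand, element from -75 to -68: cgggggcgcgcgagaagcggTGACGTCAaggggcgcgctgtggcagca

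PDE4A, chr19:10416665-10416797, plus strand, capitals from -88 to 5: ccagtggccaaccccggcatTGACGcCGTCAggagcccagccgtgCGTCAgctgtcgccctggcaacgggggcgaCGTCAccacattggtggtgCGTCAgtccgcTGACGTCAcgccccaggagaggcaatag

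The PDE4A window held 7 matches to the core motif over both strands, 2 of them inside the full element. Of all windows in the promoter table, 4 held 7 or more. The other 4 PDE4A windows held 0, so the cluster belongs to 1 of its 5 annotated starts, and the table of changed genes does not say which start was used. PDE4D, the other member of this enzyme family, had 1 core motif in 1 of its 8 windows.

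The core motif was present in 4 of 5 members listed as up and in 3 of 15 members listed as down with a window. Among all listed genes with a window it was present in 44.6% of 560 listed as up and 37.0% of 1185 listed as down, and among all genes of the promoter table in 28.4%. Counted by window, it was in 4 of 8 windows of up members and 3 of 46 of down members (6.52%), together 13.0% of the 54. The 8 and the 54 count the SLC25A6 window on both X and Y, where its coordinates are the same. Over all listed genes the core motif was in 30.5% of windows, with 35.7% for genes listed as up and 28.2% for genes listed as down. Over the promoter table it was in 24.6% of windows. The counts by gene thus mix unequal numbers of windows. The windows also do not always cover the outermost annotated start of a gene. The only PDE3A window begins at 20571829, while the gene begins at 20369245 on the plus strand. Starts outside the windows were not searched, so a gene without a match may hold the motif at another start. The 4 windows of the up members are shown with the PDE4D window for comparison, capitals marking the core motif, which appears as CGTCA where it lies on the opposite strand.

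CREB3 (up), chr9:35732552-35732596, plus strand: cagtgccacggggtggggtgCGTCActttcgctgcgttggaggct

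ITPKC (up), chr19:40716923-40716967, plus strand: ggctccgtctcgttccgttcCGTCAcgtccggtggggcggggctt

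PPIF (up), chr10:79347473-79347517, plus strand: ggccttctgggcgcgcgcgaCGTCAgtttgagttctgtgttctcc

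SPHK1 (up), chr17:76383114-76383158, plus strand: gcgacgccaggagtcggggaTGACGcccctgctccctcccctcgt

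PDE4D (down), chr5:59587658-59587702, minus strand: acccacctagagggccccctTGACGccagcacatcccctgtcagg

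SLC25A6 was the up member without the core motif. The windows differed in base composition too, with a median GC content of 71.7% over the windows of up members and 52.5% over those of down members. Over the promoter table it was 58.7%. These medians are over windows and not over genes. A gene with several windows counts several times, and SLC25A6 is counted on both X and Y. The part of composition in the motif counts was not tested. A match is a stretch of letters and not a bound site.

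**Figure D3:**
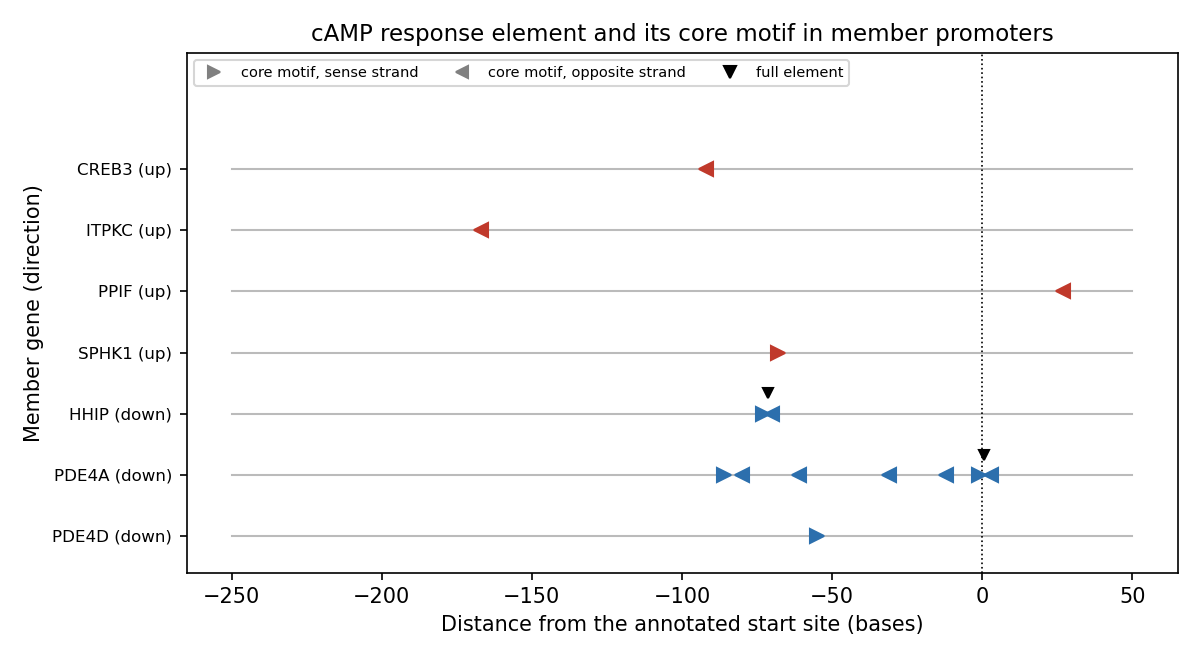
Position of the core motif (coloured triangles, pointing right on the sense strand and left on the opposite strand) and of the full cAMP response element (black triangles) in the 7 member windows that hold either, by distance in bases from the annotated start site; red genes were listed as up and blue as down. PDE4A holds 7 core matches between -88 and 5, and each up member shown holds 1. SLC25A6, also up, has no core motif and is not drawn.

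Direction went with transcript composition and gene size among the members. GC content, taken from the longest transcript of each gene, had a median of 60.9% over the 5 up members (range 53.1 to 65.5) and 44.0% over the 20 down members (37.1 to 61.0). Their median gene span was 7869 bases for up (4670 to 23758) and 142613 bases for down (2969 to 1553083). The groups overlap in GC content and in span. All listed genes lean the same way, with medians of 55.2% and 43.6% GC and of 17892 and 52751 bases for up and down.

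The long genes of this set were all listed as down. All listed genes were put in 4 groups of equal size by span and, separately, by GC content. Of the 25 members, 13 lay in the group with the longest spans, from 92427 bases upward, and 0 of the 13 were up, while 13.6% of all 559 genes in that group were. PDE4D is the longest member (chromosome 5, 58969038 to 60522120, minus strand, GENCODE 29 on GRCh38), followed by PDE1C, CREB5 and ITPR2 with spans of 548151, 526574 and 496684 bases. In the group with the shortest spans, up to 13889 bases, 4 members were up (CREB3, PPIF, SLC25A6 and SPHK1) and 3 down (GLI1, SOX9 and TNNC1), and 54.8% of all 560 genes there were up. By GC content, the 12 members in the 2 groups of lowest GC content were all down, where 4.64% and 20.2% of all listed genes were up. In the group with the highest GC content, from 56.1% upward, 4 members were up and 6 down (GLI1, ITPKB, NPR1, PDE4A, RAPGEF3 and TNNC1), against 58.9% up of all 559 listed genes there. The part of composition and length in the directions was not tested.

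**Figure D4:**
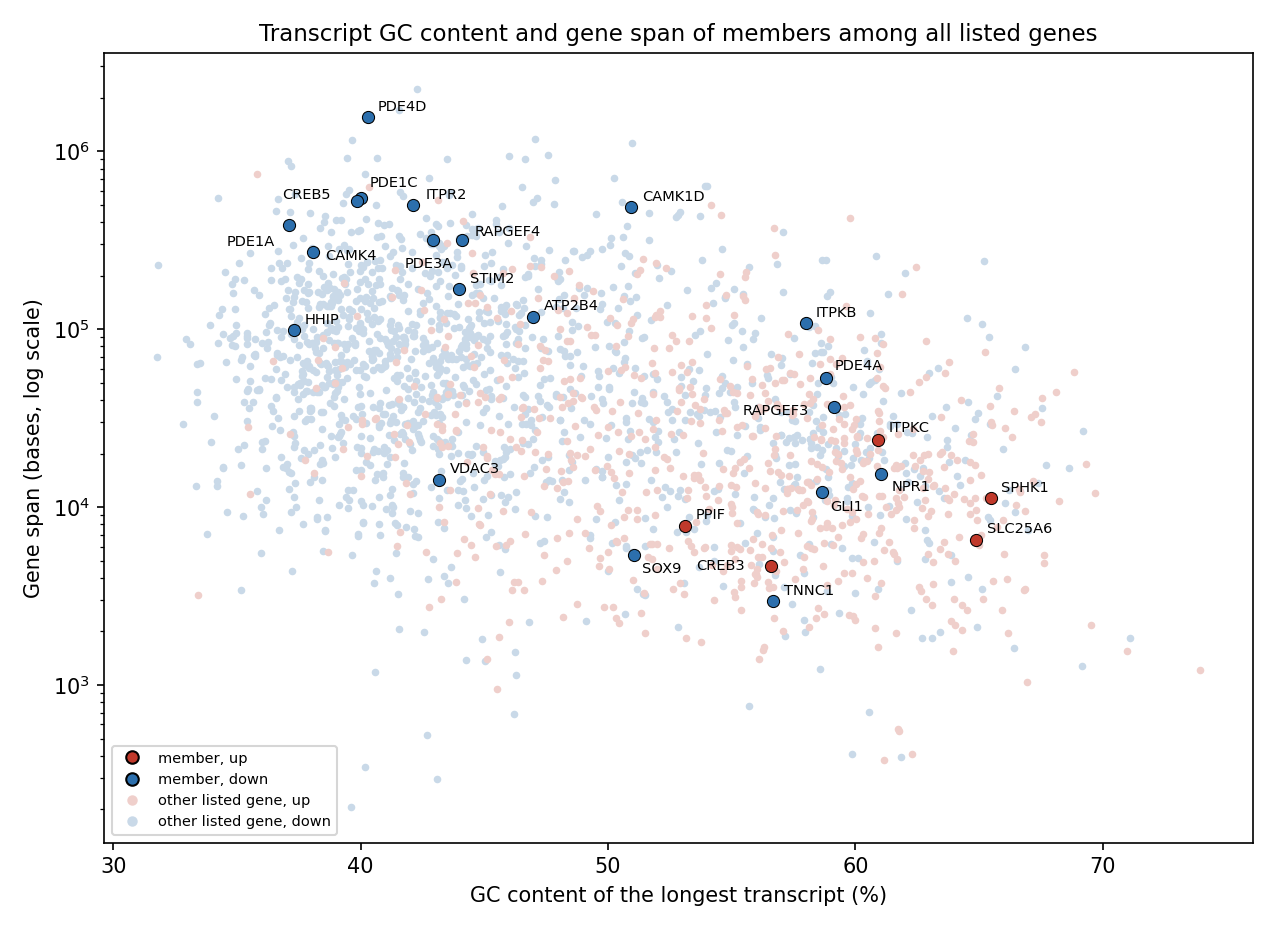
GC content of the longest transcript (x axis, %) against gene span (y axis, bases, log scale) for all listed genes (pale points) and the 25 members (dark, labelled points), red for genes listed as up and blue for down. The 5 up members lie at 53.1% GC or more and at 23758 bases or less, and the 13 longest members are all blue.

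Several members share sequence with other loci. SLC25A6 lies in the pseudoautosomal region (chromosome X, 1386152 to 1392724, minus strand, with a copy on Y) and has 6 named pseudogenes, and VDAC3 has 1. Exons of 3 up members (CREB3, ITPKC and SPHK1) and of 6 down members (RAPGEF3, RAPGEF4, PDE3A, PDE4D, GLI1 and HHIP) overlap exons on the opposite strand, and the sources used here do not say whether reads were counted by strand. The directions of these genes are uncertain for that reason. Without these 11 genes the set had 1 up (PPIF) and 13 down, a share up of 7.14% (0.181 to 33.9).

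Members also recur together in other pathways. The cGMP-PKG signaling pathway listed 9 of the 25, with 3 up and 6 down, and the aldosterone pathway 7, with 1 up and 6 down. Purine metabolism listed 6, all down (NPR1 and the 5 phosphodiesterases), of its 6 up and 34 down genes. Renin secretion listed 5, all down, of its 1 up and 23 down. These pathways share genes with each other and are not separate results. Each member was listed under a median of 6 pathways, against 2 for all listed genes; ITPR2, CREB3 and CREB5 were the 3 members under more than 20.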

How the data were processed

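One table was analysed. HISAT2 2.0.4 and StringTie 1.3.0 are named in the submitters' processing notes, with no role given. Genome build, annotation, thresholds, depth and strand setting are not given there or in the other sources used here. The authors named edgeR and KEGG enrichment in the title of the table. Per the file headers, the authors' deposited table gives for each of 327 pathways gene counts (genes, not reads), the genes listed as up and down, a rich factor (the ratio of the shares of changed and of background genes in the pathway) and a p-value and q-value, printed as the authors'.

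Members were found by pathway and gene ID. The members and the 28 role lists were chosen with earlier results of these data known. Every member is named, as are genes of the role lists and markers; the examples among genes that are no members were picked with their directions known, and some genes of these lists are not reported here. Spans, transcript GC content and length (longest transcript) came from GENCODE 29, matched by gene ID for 2237 of 2238 genes, and promoters from RefSeq, matched for 1745. Shares carry exact Clopper-Pearson 95% intervals. Proteins were translated from the longest GENCODE coding sequence and aligned locally with BLOSUM62. The motif search was tested on made sequences. No test between conditions was possible with 1 library each, so p-values per gene, replicate error and gene set tests are absent. The work used Python 3.11.15 with Biopython 1.88, SciPy 1.17.1, pandas 2.3.3, Matplotlib 3.10.9 and NumPy 2.4.6.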

Additional observations from a re-analysis of the deposited data

How the results depend on the processing

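The share of members listed as up, 20%, was recomputed under 7 alternatives, 2 of them chosen after seeing the data. All 7 values lay within its interval of 6.83 to 40.7. That is a weak check, since the interval is wide and the alternative sets share genes with the members. They were 28.6% for the calcium signaling members alone, 7.69% for the cAMP signaling members alone and 24.8% with no removal. Without genes under more than 20 pathways the share was 18.2%. For members matched to the annotation it was 20% by construction, since all 25 were matched. The 2 later ones were 7.14% without genes that share sequence or overlap on the opposite strand, and 23.7% with genes removed through a single pathway put back. The number of members was 14 for calcium signaling alone, 13 for cAMP signaling alone and 105 with no removal, by construction. The difference in median GC content, up minus down, was 16.9 percentage points, 12.0 with the mean over all transcripts and 8.04 with no removal. The full cAMP response element was in 10.0% of the 20 members with a promoter and the core motif in 35.0%, since a shorter motif occurs more often. No paired analysis was possible because each condition has 1 library. Depth and the spread between cultures are unknown, so a gene not listed cannot be called unchanged.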
